A study of Mus musculus with 30 samples.

Results

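The axon guidance ligands and receptors described here are the ephrins and their Eph receptors, the semaphorins with their plexin and neuropilin receptors, the Slits with their Robo receptors, and the netrins with Dcc and the Unc5 receptors. They were found by gene symbol among the probe sets of 3 array types: a probe set belonged if its 1 annotated symbol opened with the family name (Epha, Ephb, Efna, Efnb, Sema, Plxn, Slit, Robo, Unc5, Ntn) or was Nrp1, Nrp2 or Dcc. The rule found 120 of 36899 probe sets, of which 29197 had a single symbol. Unc50, which encodes a Golgi protein, and Plxna4os1, an antisense RNA, were caught by their names alone and set aside, which left 118 probe sets for 65 of the 15965 genes named on the arrays. Of these, 82 probe sets for 53 genes were bright enough to be tested. The 12 genes with no tested probe set were Dcc, Efna1, Efna4, Epha2, Epha3, Nrp2, Ntn4, Robo3, Robo4, Sema3b, Sema3f and Sema3g. They passed or missed the filter on low signal through their own brightness, so the tested genes are the brighter ones and not the whole families.

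Growing axons read these cues at the growth cone, where a ligand on another cell or in the matrix binds a receptor that reshapes the cytoskeleton toward attraction or repulsion. Ephrin-A gradients and the EphA receptors that read them are known for laying out visual maps, semaphorins and Slits are mainly known as repellents, and netrins attract through Dcc and repel through Unc5. Many of the same molecules remain in the postnatal cortex, where they are known to act on dendritic spines, synapses, vessels and myelinating cells.

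Mouse primary visual cortex (V1) was sampled at postnatal day 14 (P14), 28 (P28) and 60 (P60), with 3, 3 and 4 litters. All groups had standard rearing with no treatment, so age is the only difference the labels give. V1 was microdissected and RNA extracted with Trizol, and each litter was hybridised to MG-U74Av2, MG-U74Bv2 and MG-U74Cv2 arrays (chips A, B and C), 30 arrays in all. Strain, sex and the number of animals in a litter sample are not given in the sources used here. MAS5 signals were measured, a brightness per probe set on a linear scale, which can be compared between litters for 1 probe set but not between probe sets.

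P14 litter 1 stood apart from all other litters. Its ratio of signal at the 3′ over the 5′ end of the transcript was 9.57 to 12.2 for Gapdh and 12.2 to 12.8 for Actb over its 3 arrays, against 0.741 to 1.32 and 1.04 to 1.5 on the other 27 arrays. It was the lowest or the highest of the 10 litters in 44 of the 82 tested guidance probe sets (53.7%), and in 44.5% of all tested probe sets. The results are therefore given with and without it. A restricted set of arrays also leaves out the arrays of P60 with the lowest correlation to the others, litters 1 and 4 on chips A and B and litter 2 on chip C, and was chosen with results of these data known. Of the markers of cortex, 11 of 14 excitatory neuron genes, 12 of 13 GABAergic interneuron genes and 11 of 11 astrocyte genes were bright enough to be tested. So were 5 of 9 oligodendrocyte progenitor, 6 of 11 microglia, 9 of 12 meningeal and fibroblast and 2 of 8 choroid plexus genes. The same held for 4 of 8 blood cell, 8 of 11 hippocampal and 5 of 9 subcortical genes. The tissue is a mixture of cells, so fewer cells of a type and less RNA per cell cannot be told apart for any gene below.

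With all 10 litters at equal weight, no guidance gene changed with age at an adjusted p under 0.05. For most members the litters of different ages overlapped. Epha4, a receptor for both ephrin classes, was lower at P60 than at P14 on average, and so was the chip B probe set of Sema4g, a transmembrane semaphorin. Both passed when P14 litter 1 was left out and when arrays were weighted by their fit. Efna2, the gene of ephrin-A2, passed in the restricted set, where 2 P60 litters remained for it. Log2 differences were fitted with limma on the signal plus a constant, which understates the change of dim probe sets, and p-values were adjusted by Benjamini-Hochberg over all 20724 tested probe sets. Between P14 and P28, limma called 0 of 82 guidance probe sets, where 0.00483% of all tested probe sets were called, and 10 had an unadjusted p under 0.05 (12.2%, beside 7.87% of all). Between P28 and P60 it called 0 (0% of all), with 2 at an unadjusted p under 0.05 (2.44%, beside 5.43%). Between P14 and P60 it called 0 (0.396% of all), with 20 at an unadjusted p under 0.05 (24.4%, beside 15.7%). The smallest adjusted p of a member was 0.448, 0.894 and 0.107 in the 3 comparisons. A test for any difference among the ages called 0 members as well (0.111% of all).

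Without P14 litter 1, limma called 2 of the 82 between P14 and P60, Epha4 and Sema4g, both lower at P60, which is 2.44% beside 2.40% of all tested probe sets. It then called 0 between P14 and P28 (0.125% of all), with 8 at an unadjusted p under 0.05 beside 10.3% of all, and 0 between P28 and P60 (0.00483% of all), with 4 beside 9.08%. For any age difference it called 0 (0.627% of all). In the restricted set Epha4 and Sema4g were lower at P28 than at P14 (2 of 82, beside 1% of all), and Efna2, Epha4 and Sema4g were lower at P60 than at P14 (3 of 82, or 3.66%, beside 2.13% of all). The test for any age difference then called Efna2 and Sema4g (2 of 82, beside 1.07%). When each array was weighted by its fit to the others, 7 members were called between P14 and P28 (8.54%, beside 5.61% of all) and 15 between P14 and P60 (18.3%, beside 17.5% of all), with 13 for any age difference (15.9%, beside 14.6%). Among the genes named by rule in each comparison, Epha4, Epha5, Plxnb3 and Unc5b passed with these weights between P14 and P28, and Efna5, Epha4, Plxnd1, Sema3c, Sema4a, Sema4g and Unc5b between P14 and P60, while Efna2 did not (adjusted p = 0.302). At an unadjusted p under 0.05 with all litters, 14 members (17.1%) were lower at P60 than at P14 and 6 (7.32%) were higher, beside 7.93% and 7.81% of all tested probe sets. Without P14 litter 1 these were 10 (12.2%) and 6 (7.32%), beside 10.4% and 8.68%, and 16 in all beside 19.1%.

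Over 1 probe set per gene, the guidance genes did not lean to one side in the signals as deposited. The number higher at the later age was 26 of 53 between P14 and P28 (median log2 difference -0.01), 28 of 53 between P28 and P60 (0.01), and 27 of 53 between P14 and P60 (0.04, but -0.10 after quantile normalization, with 22 higher). Over all 11240 tested genes the medians were 0.04, -0.02 and 0.05, and the last was -0.001 after quantile normalization. Between P14 and P60, 13 of 28 ligand genes and 14 of 25 receptor genes were higher at P60. After quantile normalization these were 9 of 28 and 13 of 25, beside 49.9% of all tested genes. In the plot of all members by family, the points of most families fall on both sides of 0.

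**Figure D1:**
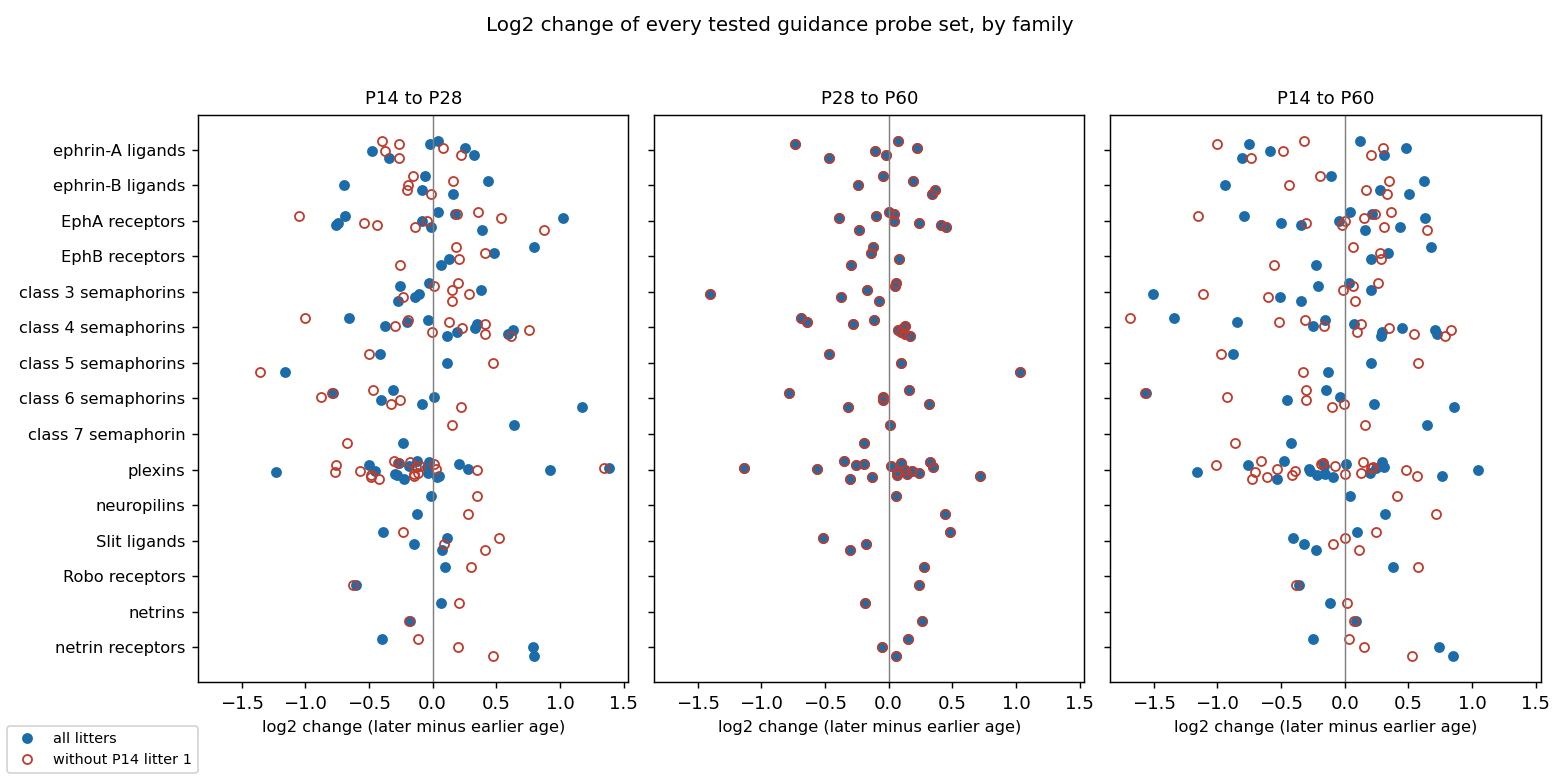
Log2 difference between ages for each of the 82 tested guidance probe sets, by family, in the 3 comparisons. Filled points are from the fit with all 10 litters and open points from the fit without P14 litter 1. Most families straddle 0, and in the outer panels many open points lie far from their filled partners.

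The sequences just upstream of 4 genes are shown because the results turn on their levels: Epha4, Sema4g and Efna2, which passed in at least 1 fit with fewer litters, and Unc5b, the netrin receptor gene with the largest positive difference between P14 and P60. They are the 250 bases before the annotated start in RefSeq on GRCm38.p6, read 5′ to 3′ along each gene's strand: Epha4 at chr1:77515089-77515338 (minus strand), Sema4g at chr19:44989094-44989343 (plus), Efna2 at chr10:80179232-80179481 (plus) and Unc5b at chr10:60831582-60831831 (minus). Capitals mark the letters GGGCGG or CCGCCC, the core of a GC box on either strand.
Epha4: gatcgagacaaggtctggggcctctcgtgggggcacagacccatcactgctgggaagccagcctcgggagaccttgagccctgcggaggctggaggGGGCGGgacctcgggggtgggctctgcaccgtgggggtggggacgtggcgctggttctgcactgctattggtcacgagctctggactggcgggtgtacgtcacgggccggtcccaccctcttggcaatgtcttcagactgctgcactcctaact
Sema4g: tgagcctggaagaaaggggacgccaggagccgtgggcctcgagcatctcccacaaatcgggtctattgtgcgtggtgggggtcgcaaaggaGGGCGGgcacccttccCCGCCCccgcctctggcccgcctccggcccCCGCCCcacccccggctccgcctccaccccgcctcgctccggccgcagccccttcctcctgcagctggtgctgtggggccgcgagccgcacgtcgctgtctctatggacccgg
Efna2: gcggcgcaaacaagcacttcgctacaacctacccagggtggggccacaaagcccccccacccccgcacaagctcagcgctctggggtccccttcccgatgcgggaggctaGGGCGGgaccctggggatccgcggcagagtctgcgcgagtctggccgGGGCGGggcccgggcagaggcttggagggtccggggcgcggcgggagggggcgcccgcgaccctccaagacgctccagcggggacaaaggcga
Unc5b: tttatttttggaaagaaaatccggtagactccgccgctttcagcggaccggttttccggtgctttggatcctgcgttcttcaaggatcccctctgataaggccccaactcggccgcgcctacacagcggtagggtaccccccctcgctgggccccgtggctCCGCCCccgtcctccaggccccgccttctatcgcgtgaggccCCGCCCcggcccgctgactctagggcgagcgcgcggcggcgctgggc

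The windows hold 1, 3, 2 and 2 such matches in that order, and 32.7% of 32851 upstream windows of the same length hold at least 1. They are rich in G and C (66.0%, 73.2%, 73.6% and 66.8%) beside a median of 52.4% over all windows. The Epha4 window also has 1 CCAAT box (CCAAT or ATTGG, in 33.9% of windows) and 1 match to TGACG or CGTCA (in 17.8%). RefSeq windows were found for 56 of the 65 guidance genes. A match is a description of the letters, and no binding was measured here.

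Ephrin-A ligands are held to the membrane by a lipid anchor and are known for repelling EphA-bearing axons. Efna2 signals on chip A were 172, 328 and 298 at P14, 250, 234 and 278 at P28, and 274, 45.0, 48.8 and 377 at P60. The P60 litters fell far apart: litters 2 and 3 were below every younger litter, and litters 1 and 4 were within or above the younger range. The means were 266 ± 82.8 (SD, n = 3), 254 ± 21.9 (SD, n = 3) and 186 ± 166 (SD, n = 4). The log2 difference between P14 and P60 was -0.75 (standard error 0.53, adjusted p = 0.504), and the adjusted p was 0.367 without P14 litter 1. It was -2.04 (adjusted p = 0.00894) in the restricted set, which drops exactly the 2 high P60 litters. The 2 that remain, at 45.0 and 48.8, were below 98.4, the 95th percentile of the bacterial control probe sets on chip A, so the size of that difference is set by background at P60. Between P14 and P28 the difference was -0.02 (adjusted p = 0.997), and between P28 and P60 it was -0.73 (adjusted p = 0.898). A further Efna2 probe set on chip C was too dim to test.

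Efna5 encodes ephrin-A5, a main topographic cue of the visual system. On chip B its signals were 1364, 938 and 1252 at P14, 674, 716 and 1155 at P28, and 700, 879, 936 and 577 at P60. All P60 litters were below all P14 litters, the nearest pair being 936 and 938. The difference between P14 and P60 was -0.59 (standard error 0.24, adjusted p = 0.269) and -0.24 in the restricted set, and the chip C probe set had -0.81. Efna3, the gene of ephrin-A3, stood at 1085, 2885 and 2686 at P14 and between 2000 and 2502 in all older litters on chip A. Its difference between P14 and P60 was 0.12 with all litters and -0.32 without P14 litter 1, the low one.

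Ephrin-B ligands span the membrane and can signal back into their own cell. Efnb2, known in vessels and at synapses, had signals of 2636, 878 and 944 at P14, 693, 838 and 847 at P28, and 554, 677, 793 and 644 at P60. The P14 litters were the 3 highest, and litter 1 was far above the other two. The difference between P14 and P60 was -0.94 (standard error 0.33, adjusted p = 0.204), and -0.44 (adjusted p = 0.223) without P14 litter 1. The restricted set gave -0.30. The 8 measured endothelial and mural marker genes stand for the vessel cells in which Efnb2 is known. Their summed signal ranged from 3493 to 4343 at P14, 3175 to 3790 at P28 and 3266 to 3863 at P60. With all litters, 5 of 8 were higher at P60 than at P14. Without P14 litter 1, 3 of the 8 were higher (median -0.12): Flt1 (1.24), Slco1a4 (0.78) and Kdr (0.20). Limma then called 1 of the 8, the tight junction gene Cldn5, lower at P60 (-1.36, adjusted p = 0.032), beside 2.4% of all tested probe sets. The part of vessel cells in the Efnb2 values was not tested. Efnb1 was higher at P60 on both probe sets (0.50 and 0.62), with all P60 litters of chip A, 249 to 388, above all P14 litters, 147 to 238. Efnb3 probe sets differed in sign (-0.10 and 0.28).

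EphA receptors are receptor tyrosine kinases that read ephrin-A gradients. Epha4 also binds ephrin-B ligands and is known on dendritic spines. Its chip A signals were 355, 863 and 736 at P14, 417, 275 and 421 at P28, and 342, 347, 386 and 283 at P60. P14 litters 2 and 3 were above all other litters, while P14 litter 1 lay among the older ones. The means were 651 ± 264 (SD, n = 3) at P14, 371 ± 83.2 (SD, n = 3) at P28 and 339 ± 42.4 (SD, n = 4) at P60. With all litters the log2 difference between P14 and P60 was -0.79 (standard error 0.28, adjusted p = 0.221). It was -1.15 (adjusted p = 0.0266) without P14 litter 1, -1.18 (adjusted p = 0.0036) with array weights and -1.05 (adjusted p = 0.0472) in the restricted set. From P14 to P28 it was -0.69 (standard error 0.30, adjusted p = 0.618), then -1.05 without P14 litter 1 (adjusted p = 0.122) and in the restricted set (adjusted p = 0.0482). The other 2 Epha4 probe sets were too dim to test, so the difference rests on 1 probe set.

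Epha5, a receptor for ephrin-A ligands in forebrain neurons, had the smallest p of all members between P14 and P28. Its chip A signals were 592, 377 and 382 at P14, 266, 236 and 244 at P28, and 283, 268, 352 and 301 at P60. All P14 litters were above all older litters, and all P28 litters were just below all P60 litters. From P14 to P28 the log2 difference was -0.74 (standard error 0.23, adjusted p = 0.448) and -0.54 (adjusted p = 0.424) without P14 litter 1. The chip C probe set of Epha5 stood at 4266, 2263 and 2058, then 1776, 1612 and 1384, then 2079, 1655, 2514 and 2353, with a difference of -0.76 (adjusted p = 0.504) between P14 and P28. Both probe sets had their lowest mean at P28, and on chip C the P60 litters overlapped both younger ages.

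Epha10, a receptor with a kinase thought to be inactive, had signals of 235, 647 and 852 at P14, 876, 1132 and 1351 at P28, and 614, 943, 1089 and 746 at P60. All P28 litters were above all P14 litters, and P60 overlapped both. From P14 to P28 the log2 difference was 1.02 (standard error 0.37, adjusted p = 0.501), and 0.54 (adjusted p = 0.526) without P14 litter 1. Epha7 stood at 832, 262 and 292 at P14 and between 320 and 636 in all older litters on chip A, so its difference between P14 and P28 was 0.39 with all litters and 0.87 without litter 1; its chip B probe set gave -0.08 and -0.04. Epha1, Epha6 and Epha8 had differences between P14 and P60 of 0.44, 0.04 and 0.22, and none passed.

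EphB receptors bind ephrin-B ligands and are known at excitatory synapses. Ephb1 signals were 1463, 1643 and 1737 at P14, 2365, 2720 and 1816 at P28, and 2177, 2009, 1819 and 2254 at P60. Every older litter was above every P14 litter. Its log2 difference from P14 to P28 was 0.48 (standard error 0.20, adjusted p = 0.591), and between P14 and P60 it was 0.34. Ephb6, a member without kinase activity, stood at 383 in P14 litter 1, at 1455 and 1505 in the other P14 litters, and at 1364 to 1876 in the older ones. That probe set's difference between P14 and P60 was 0.68 with litter 1 and 0.06 without. Ephb3 gave -0.23, with overlapping litters.

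**Figure D2:**
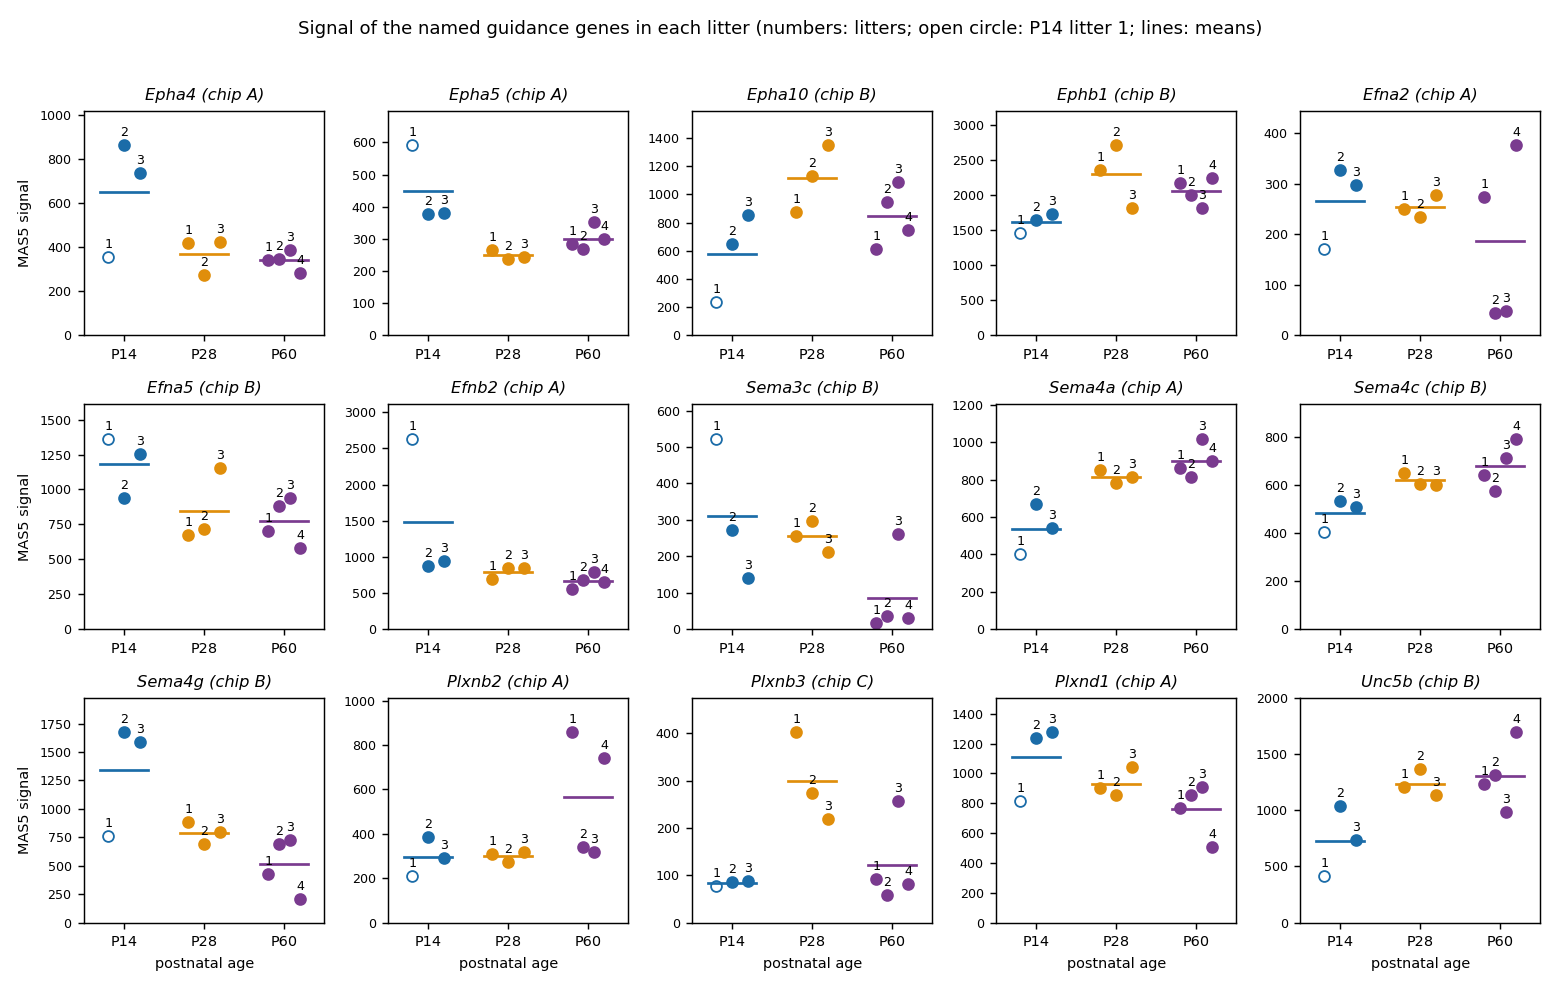
MAS5 signal of 15 guidance genes in each litter at P14, P28 and P60, with litter numbers beside the points, P14 litter 1 as an open circle and the mean of each age as a line. Each panel has its own linear axis from 0. P14 litter 1 lies far from the other P14 litters for Epha4, Sema4g, Efnb2 and Epha10, and the P60 litters of Efna2 and Plxnb2 split into litters 1 and 4 against 2 and 3.

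Class 4 semaphorins are transmembrane ligands that mostly signal through plexin-B receptors. Sema4g signals on chip B were 763, 1674 and 1585 at P14, 885, 690 and 795 at P28, and 428, 693, 728 and 206 at P60. All P60 litters were below all P14 litters, and P14 litter 1 lay at the level of P28. The means were 1341 ± 502 (SD, n = 3), 790 ± 97.8 (SD, n = 3) and 514 ± 245 (SD, n = 4). The log2 difference between P14 and P60 was -1.34 (standard error 0.37, adjusted p = 0.132) with all litters, -1.69 (adjusted p = 0.0403) without P14 litter 1, -1.90 (adjusted p = 0.00101) with array weights, and -1.13 (adjusted p = 0.0134) in the restricted set. Between P14 and P28 it was -0.65 (adjusted p = 0.747) with all litters and -1.0 without P14 litter 1 (adjusted p = 0.390) and in the restricted set (adjusted p = 0.0249). The 2 Sema4g probe sets on chip C did not follow it, with -0.15 and 0.71 between P14 and P60 with all litters. Without P14 litter 1, a chip C probe set was higher at P60 at an unadjusted p under 0.05 (limma), opposite to the chip B probe set.

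Sema4a, known in immune cells and in the retina, went the other way. Its signals were 400, 670 and 544 at P14, 853, 782 and 815 at P28, and 864, 813, 1020 and 899 at P60. Every older litter was above every P14 litter. The log2 difference between P14 and P60 was 0.72 (standard error 0.20, adjusted p = 0.128), with 0.54 (adjusted p = 0.111) without P14 litter 1, and between P14 and P28 it was 0.60 (adjusted p = 0.488). Sema4c, a plexin-B2 ligand, had 406, 532 and 509 at P14, 652, 606 and 602 at P28, and 640, 576, 713 and 794 at P60, again without overlap between P14 and the older ages. Its difference between P14 and P60 was 0.45 (standard error 0.18, adjusted p = 0.259), and 0.27 in the restricted set. Sema4b and Sema4d had probe sets of opposite sign between P14 and P60 (-0.25 and 0.28, and 0.07 and -0.84), and Sema4f gave 0.29.

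Class 3 semaphorins are the secreted class that binds neuropilins. Sema3c signals on chip B were 523, 271 and 139 at P14, 257, 296 and 211 at P28, and 16.6, 35.1, 262 and 28.9 at P60. P60 litters 1, 2 and 4 were below all younger litters, while litter 3 lay among them. The P60 mean, 85.6 ± 118 (SD, n = 4), was below 153, the 95th percentile of the bacterial control probe sets on that chip, so the P60 level was within the range of background. The log2 difference was -1.40 between P28 and P60 (standard error 0.53, adjusted p = 0.894) and -1.51 between P14 and P60 (adjusted p = 0.208). In the restricted set these were -0.85 and -0.56. Its probe set carries the suffix i, which marks a set with fewer unique probes than the design required. Sema3a, a repellent also found in perineuronal nets, had 0.04 and -0.51 on its 2 probe sets between P14 and P60, Sema3d had -0.21 and 0.21, and Sema3e had -0.34. Of the 4 tested genes of the class, 0 were higher at P28 than at P14 with all litters and 4 were higher without P14 litter 1.

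Class 5, 6 and 7 semaphorins are membrane-bound, and class 6 signals through plexin-A receptors. Sema6a had the smallest adjusted p of all members between P14 and P60, 0.107, on a probe set that was not the one kept for the gene and was singled out after its values were seen. It stood at 383, 308 and 496 at P14, 397, 103 and 184 at P28, and 85.6, 161, 50.9 and 97.2 at P60. All P60 litters were below all P14 litters (-1.56, standard error 0.39), with a mean below the bacterial controls, and the brighter chip B probe set gave -0.15. The dimmer probe set passed the filter on low signal only with its P14 litters, as every P60 litter was below the chip median. Its difference between P14 and P60 is therefore in part a condition of being tested. For Sema6b and Sema6c, P14 litter 1 was far below the others: Sema6b had 59.2 there against 550 and 826 in the other P14 litters, and its difference between P14 and P60 went from 0.86 to -0.10 without it. Sema6c had 38.3 there against 509 and 392, and went from -0.03 to -0.92. Sema7a, a lipid-anchored semaphorin, had 384 there against 1031 and 1213, and went from 0.65 to 0.16, while its second probe set gave -0.43 and -0.86.

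Sema5b had signals of 254, 378 and 434 at P14, 261, 142 and 57.5 at P28, and 411, 83.6, 332 and 729 at P60 on chip A. The P60 litters spanned the whole range of the younger ones. Its difference was -1.16 between P14 and P28 and -0.13 between P14 and P60, and the chip B probe set gave -0.41 and -0.88. Sema5a gave 0.21 between P14 and P60, and Sema6d 0.23 and -0.45 on its 2 probe sets.

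Plexins are the semaphorin receptors, and neuropilins the co-receptors for the secreted class. Plxnb3, a plexin known in oligodendrocytes, had signals of 77.8, 86.0 and 88.3 at P14, 402, 273 and 219 at P28, and 92.8, 58.1, 257 and 82.0 at P60. P28 was above P14 in every litter, and the P60 litters stood near the P14 litters except for litter 3. From P14 to P28 the log2 difference was 1.38 (standard error 0.46, adjusted p = 0.475) and 1.35 (adjusted p = 0.395) without P14 litter 1. The difference between P28 and P60 was -1.14 (adjusted p = 0.894). The means at P14 and P60 were below 252, the 95th percentile of the bacterial controls on chip C, and so was litter 3 of P28. Plxnb3 passed the filter on low signal only with its P28 litters. All P14 litters, and all P60 litters except litter 3, were below the chip median. Its differences from P14 to P28 and from P28 to P60 are therefore in part a condition of being tested. Myelin and mature oligodendrocyte markers were higher at P28 than at P14 in 13 of 14 measured genes (median 0.73), beside 54.0% of all tested genes. Limma called 0 of them, beside 0.00483% of all tested probe sets. Their summed signal ranged from 8776 to 15946 at P14, 15217 to 23267 at P28 and 17321 to 22724 at P60. Without P14 litter 1 the median was 0.99, again with 13 of 14 higher, beside 51.6% of all tested genes. Limma then called 2 of the 14 higher, the myelin protein genes Mobp and Mal, beside 0.125% of all tested probe sets. The part of these cells in the Plxnb3 values was not tested.

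Plxnb2, a receptor for class 4 semaphorins, had signals of 210, 385 and 293 at P14, 308, 274 and 317 at P28, and 857, 341, 317 and 743 at P60. P60 litters 1 and 4 were far above every other litter, and litters 2 and 3 were in the younger range. The difference between P14 and P60 was 0.76 (standard error 0.34, adjusted p = 0.302) with all litters and -0.03 (adjusted p = 0.965) in the restricted set. The second chip A probe set gave 1.05, with 65.6 in P14 litter 1. Plxnd1, a receptor for Sema3e known in vessels, had 814, 1239 and 1276 at P14, 899, 852 and 1041 at P28, and 767, 855, 909 and 509 at P60. Its difference between P14 and P60 was -0.53 (standard error 0.24, adjusted p = 0.310) and -0.73 (adjusted p = 0.0985) without P14 litter 1, the lowest P14 litter. Between P14 and P60, 3 of 9 plexin genes were higher at P60 with all litters, 3 after quantile normalization and 3 without P14 litter 1.

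Plxna2 had 5 tested probe sets, from -1.16 to 0.30 between P14 and P60. Plxna1, Plxna3 and Plxna4 had -0.09, -0.48 and -0.17 on the kept probe sets, and Plxnb1 had 0.31 with -0.76 on another. Plxnc1 was the 1 member whose P60 litters, 591, 228, 591 and 430, were all below the P28 litters, 665, 680 and 639, beside 4.46% of all tested probe sets (-0.56). Nrp1 stood at 695, 305 and 254 at P14 and 406 to 555 at P60, with 0.32 between P14 and P60 and 0.72 without P14 litter 1.

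Netrin receptors of the Unc5 family mediate repulsion from netrin-1, and Unc5b is also known on vessels. Unc5b signals were 419, 1035 and 734 at P14, 1206, 1370 and 1133 at P28, and 1238, 1317, 981 and 1695 at P60. All P28 litters were above all P14 litters, and P60 litter 3 overlapped P14 litter 2. The log2 difference between P14 and P28 was 0.79 (standard error 0.29, adjusted p = 0.504), and 0.47 (adjusted p = 0.535) without P14 litter 1. Between P14 and P60 it was 0.85 (standard error 0.27, adjusted p = 0.170), and 0.53 (adjusted p = 0.229) without P14 litter 1. The restricted set gave 0.36. Unc5a had 679 in P14 litter 1 against 2336 and 2544, and its difference between P14 and P60 was 0.74 with and 0.15 without that litter. Unc5c gave -0.25 and 0.04. The ligand gene Ntn1 was level, with 331 to 501 over all litters and 0.09 between P14 and P60, and Ntn3 gave -0.12.

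Slits are secreted repellents and Robos their receptors. Robo2 stood at 881, 1028 and 822 at P14, 422, 911 and 509 at P28, and 633, 746, 719 and 697 at P60. The P60 litters were all below the P14 litters (-0.36), and the P28 litters overlapped both. Robo1 gave 0.38 between P14 and P60. Slit2 had 902 in P14 litter 1 and 392 to 624 in all other litters on chip B, with -0.23 between P14 and P60 and 0.11 without that litter. Slit1 and Slit3 gave 0.10 and -0.32.

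Between P14 and P60, 5 of 82 probe sets had all P60 litters above all P14 litters (6.10%, beside 6.61% of all tested probe sets): Efnb1, Ephb1, Plxnb2, Sema4a and Sema4c. All P60 litters were below all P14 litters in 8 (9.76%, beside 6.42%), for Efna5, Efnb2, Epha5, Robo2, Sema4g, Sema5b, Sema6a and Sema6d. For Plxnb2, Sema5b, Sema6a and Sema6d this was a probe set other than the one kept for the gene, and the litters of the kept one overlapped. Between P14 and P28 these counts were 11 higher (13.4%, beside 9.45%) and 8 lower (9.76%, beside 8.41%), and between P28 and P60 they were 4 higher (4.88%, beside 3.90%) and 1 lower.

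Probe sets of 1 gene often disagreed. Of the 23 genes with more than 1 tested probe set, the sign of the difference was the same on all of them in 15 between P14 and P28, in 10 between P28 and P60, and in 11 between P14 and P60. Efna3, Efna5, Efnb1, Epha5, Ephb6, Nrp1, Plxnb2 and Slit2 were among those with 1 sign between P14 and P60. Sema4g had the widest gap, from -1.34 to 0.71. Where probe sets differ, the arrays do not settle which one follows the gene.

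**Figure D3:**
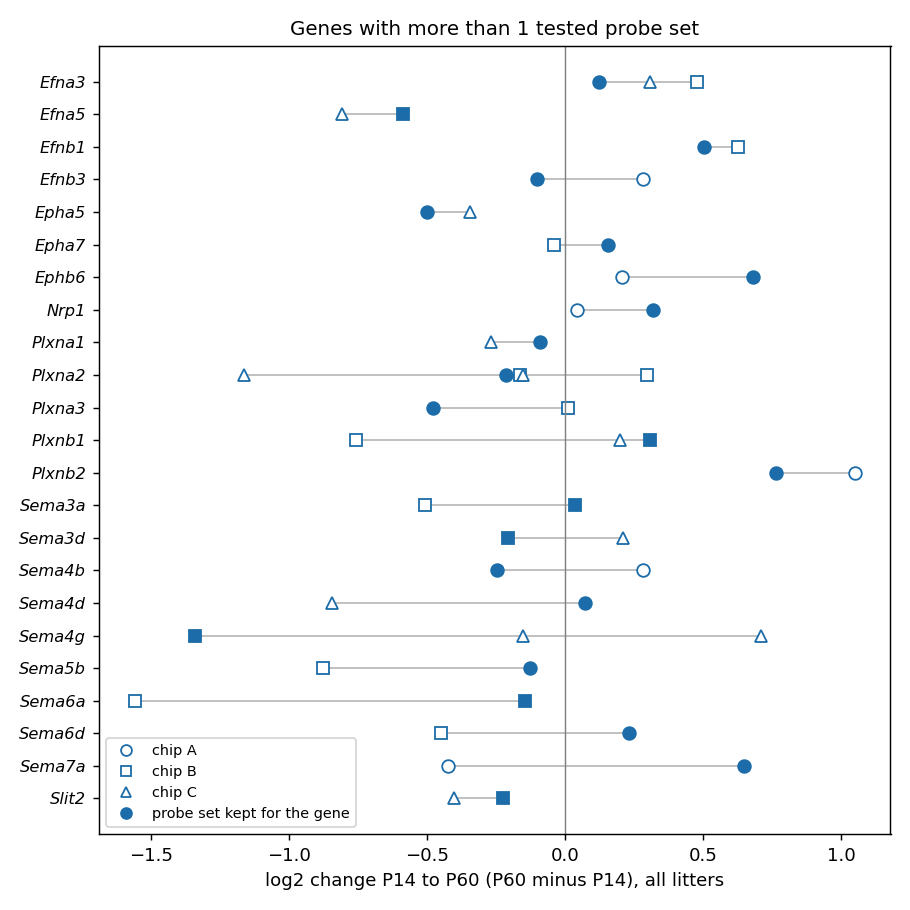
Log2 difference between P14 and P60 for each tested probe set of the 23 genes with more than 1, with a line joining the probe sets of a gene, shapes for the chip type and a filled symbol for the probe set kept for the gene. Lines of 12 genes cross 0, the widest being that of Sema4g from -1.34 to 0.71.

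Leaving out P14 litter 1 changed the sign of 15 of the 82 differences between P14 and P28 (18.3%, beside 23.8% of all tested probe sets) and of 12 between P14 and P60 (14.6%, beside 18.3%). Shifts ran from -0.96 to 0.50 on the log2 scale. The most negative was that of Sema6b, whose level in that litter was far below the other P14 litters.

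**Figure D4:**
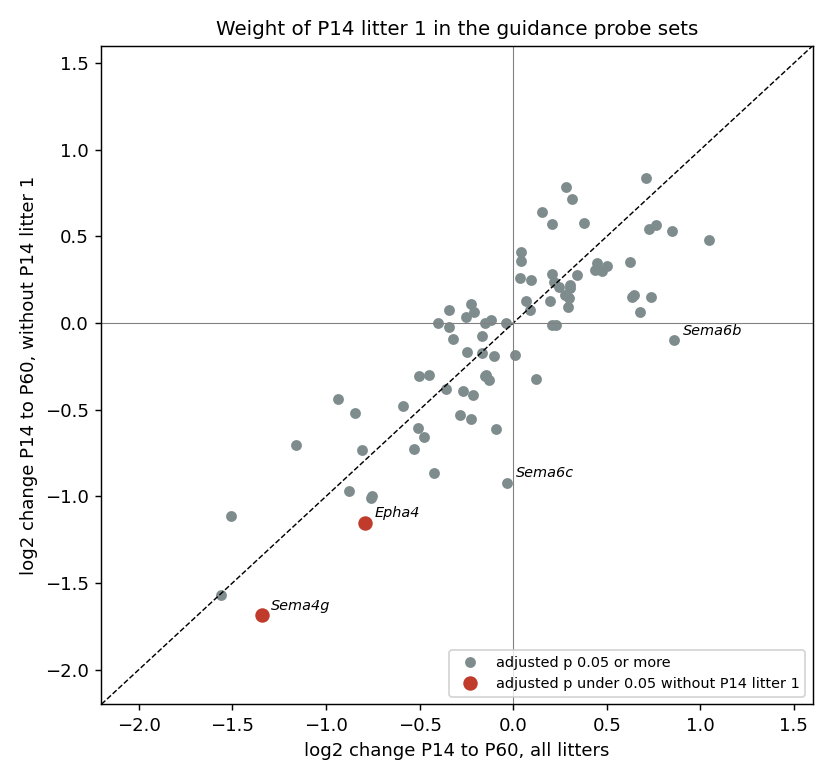
Log2 difference between P14 and P60 for the 82 tested guidance probe sets, with all litters on the horizontal axis and without P14 litter 1 on the vertical axis, and a dashed line of equality. Sema4g and Epha4, in red, passed without that litter and not in the fit with all litters at equal weight, and Sema6b moved from 0.86 to -0.10.

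Other genes of the pathways were counted from lists chosen by function. Of 35 symbols listed as other guidance cues and co-receptors, 27 were measured. Of these, 12 were higher at P60 than at P14 (median -0.06), beside 54.5% of all tested genes. Without P14 litter 1, 14 of the 27 were higher (median 0.14), beside 51.3% of all tested genes. With all litters, limma called 1 gene, which fell, beside 0.396% of all tested probe sets. It was Ncam1, the neural cell adhesion molecule gene, with 2954, 3408 and 3568 at P14, 1610, 1540 and 1871 at P28, and 1580, 1724, 1702 and 1426 at P60 (-1.02, adjusted p = 0.0310). Every P14 litter was above every older litter, and without P14 litter 2 limma called 0 probe sets in all, Ncam1 included. Of 79 symbols listed as guidance signalling effectors, 62 were measured. Of these, 26 were higher at P60 (median -0.07), beside 54.5% of all tested genes, and limma called 0, beside 0.396% of all tested probe sets. Tag1 and Ephexin1, counted as not measured, are other names of Cntn2 and Ngef, which were listed and measured.

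Without P14 litter 1, 6 of the 62 effectors fell between P14 and P60, beside 2.4% of all tested probe sets called in that fit. They were the actin-severing cofilins Cfl1 (-0.95) and Cfl2 (-0.92), the kinase gene Fyn (-0.90), and the collapsin response mediator genes Crmp1 (-1.24), Dpysl4 (-0.88) and Dpysl5 (-2.62). P14 litter 1 was low for several of these: Crmp1 had 720 there against 5034 and 3753, Cfl1 2136 against 15221 and 16566, and Dpysl5 544 against 2622 and 1632. These calls rest on P14 litters 2 and 3 alone at that age.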

How the data were processed

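The authors deposited linear intensities, made with MAS5 per the submitters' processing notes, with no detection calls. The 2% trimmed mean of every array was 500, so no further scaling was applied. All p-values treat the 10 litters as separate, taking the second litter number of each title as the litter. Symbols came from the platform annotation, updated through gene IDs (99.7% matched). Signals were taken as log2 of the signal plus the chip type's 20th percentile (38.6, 57.8 and 44.0). Probe sets above the chip median (207, 252 and 183) on at least 3 arrays, array controls excepted, were fitted per chip type with limma 3.58.1 in R 4.3.3 (lmFit, eBayes with a trend), with age as the only term and Benjamini-Hochberg adjustment over the 3 chips at 0.05. The script was tested on simulated data. Each gene kept 1 probe set, from chip A, then B, then C, and within a chip the highest mean log2 signal. Genes were named if past the threshold, or among the 6 largest differences in each direction with an unadjusted p under 0.05 in a comparison, and Efna2 always. Further members were described after their values were seen. The members, lists, tests and restricted set were chosen with earlier results of these data known. With 3 to 4 litters per age, the number of arrays limits the precision. Alternatives covered the constant, filter, normalization, array weights, litter blocks and single litters left out. Tables were handled with pandas 2.3.3 in Python 3.11.15.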

Additional observations from a re-analysis of the deposited data

Results flagged for a closer look

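Sema3c at P60 had 1 litter far from the others. Litter 3 stood at 262, and litters 1, 2 and 4 at 16.6, 35.1 and 28.9, and on the log2 scale, with the constant added, the gap to the nearest litter was 0.848 of the whole range, past the 95% critical value of Dixon's test for 4 litters. It was the 1 of 53 guidance genes with such a litter at P60, and chance alone gives about 1 in 20. The other 3 litters were below the bacterial control level of chip B, 153.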

How the results depend on the processing

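The number of guidance probe sets called moved with the arrays and their weights. With estimated array weights, limma called 7 between P14 and P28, 15 between P14 and P60 and 13 for any age difference. The restricted set called 2, 3 and 2. With single litters left out, the count between P14 and P60 ran from 0 to 2, the 2 being without P14 litter 1. All other settings called 0 members, and between P28 and P60 every setting that was run called 0. The litter number as a replicate block also called 0 in each comparison. Litters with the same number at different ages did not deviate together (correlations from -0.076 to 0.158, and from -0.212 to 0.248 for other pairs), so the numbers were not taken as pairs. Over all tested probe sets, 82 were called between P14 and P60, and this count was 144 with a stricter filter, 441 in the restricted set, 3621 with array weights, 0 with the block, 0 with only the 2 ages in the fit, and 0 to 497 with single litters left out. Between P14 and P28 the 1 call became 208 and 1163 in the restricted set and with array weights, 2 with the stricter filter, and 0 to 26 with litters left out. For any age difference the 23 calls became 221, 3024 and 43, and 0 to 130. The Efna2 difference between P14 and P28 changed sign without P14 litter 2 (0.14), P14 litter 3 (0.07) or P28 litter 2 (0.03), and ranged from -0.26 to 0.14. Plxnb2 between P14 and P60 reversed to -0.027 in the restricted set. All other named differences kept their sign in every setting run. The cause of these shifts was not tested. Probe sets below the bacterial controls (Sema3c at P60, Plxnb3 at P14 and P60, Sema6a at P60, and Efna2 in P60 litters 2 and 3) are limited by background.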

Other observations

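The 2 probe sets that the symbol rule caught by name alone are given here as values. Unc50 had signals of 2096, 2100 and 2216 at P14, 2362, 2235 and 2008 at P28, and 1971, 2065, 1801 and 1498 at P60, with all P60 litters below all P14 litters (-0.23, adjusted p = 0.550, limma). Plxna4os1 ranged from 38.9 to 355 over the 10 litters and was too dim to test.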
